A study of Rattus norvegicus with 23 samples.

Results

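Spp1, Mmp12, Lgals3 and Gpnmb were described in 23 rat RNA-seq libraries as 4 genes of 32545 identifiers counted. They were chosen by their high levels in repaired nerves of these same libraries, as genes of phagocytes that clear debris. Their levels in repaired nerves against healthy tissues are therefore given as values, without a test. The identifiers were ENSRNOG00000043451 for Spp1, ENSRNOG00000030187 for Mmp12, ENSRNOG00000010645 for Lgals3 and ENSRNOG00000008816 for Gpnmb. All 4 passed the filter on low counts in both fits used.

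The animals were adult female rats labelled wild type, and median nerves had been cut to leave a gap of 8 mm. The series design describes a muscle-in-vein graft of 10 mm, in which a stretch of vein packed with muscle fibres is placed between the nerve ends. The repaired groups were the nerve 7 days after repair in a series labelled MIV (n = 3) and in a series labelled EV (n = 3), and the nerve 3 days after repair in MIV (n = 3) and in EV (n = 3). The EV treatment label names repair of the cut without MIV and does not spell out its abbreviation. The tissues labelled healthy had no treatment: median nerve (n = 5), muscle from the adductor (n = 3) and vein from the epigastric vessel (n = 3). The labels do not say that each library was a separate animal, so the p-values below measure the spread between these samples. Library totals lay between 12504035 and 17314324 counts. Levels are CPM, counts scaled to the depth of each library after TMM scaling, and they are not divided by gene length. They are compared between groups for 1 gene at a time. Because whole tissue was sequenced, fewer cells of a type and less RNA per cell cannot be told apart.

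After a nerve is cut, the myelin and axon fragments beyond the cut are broken down and taken up by Schwann cells and by macrophages that enter from the blood. Spp1 encodes osteopontin, a secreted phosphoprotein that binds integrins and CD44 and acts as a cytokine and matrix protein. Mmp12 encodes macrophage metalloelastase, a secreted protease that degrades elastin. Lgals3 encodes galectin-3, a lectin that binds beta-galactosides inside and outside the cell. Gpnmb encodes a transmembrane glycoprotein of late endosomes and lysosomes. In mouse and human macrophages, lipid-laden and phagocytic states are known for high levels of these transcripts, and osteopontin is also made by Schwann cells. The rows of the count table carry no gene names that could be matched here, so markers of macrophages, Schwann cells, muscle and vein were not measured, and neither the phagocyte label nor the labelled tissues were checked against them.

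The promoters are shown as a description of sequence, and a link between them and the courses of the genes was not tested. RefSeq entries (build GRCr8) were matched for 3 of the 4 genes, Lgals3 being the other. Each sequence is the 250 bases before the annotated start, 5′ to 3′ on the gene's strand. Capitals mark TGANTCA, the consensus bound by AP-1 factors, and CACGTG or CATGTG, the E-boxes bound by MiT factors such as MITF and TFEB, searched on both strands (CATGTG reads CACATG on the other strand). No matches overlapped. Over 33469 promoter windows of the same length, 6.34% held the AP-1 letters and 17.1% held 1 of the E-boxes.
Spp1, chr14:5619805-5620054, minus strand: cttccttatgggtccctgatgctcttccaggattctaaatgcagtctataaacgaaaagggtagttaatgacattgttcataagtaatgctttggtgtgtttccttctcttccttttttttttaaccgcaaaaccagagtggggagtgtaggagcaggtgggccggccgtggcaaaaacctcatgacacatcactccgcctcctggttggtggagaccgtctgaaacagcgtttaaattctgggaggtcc
Mmp12, chr8:12866402-12866651, plus strand: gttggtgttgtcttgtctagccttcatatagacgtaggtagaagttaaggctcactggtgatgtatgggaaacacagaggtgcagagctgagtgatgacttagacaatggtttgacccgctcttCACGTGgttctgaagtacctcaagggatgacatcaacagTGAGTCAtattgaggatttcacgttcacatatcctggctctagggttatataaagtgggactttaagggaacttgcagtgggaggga
Gpnmb, chr4:79340878-79341127, plus strand: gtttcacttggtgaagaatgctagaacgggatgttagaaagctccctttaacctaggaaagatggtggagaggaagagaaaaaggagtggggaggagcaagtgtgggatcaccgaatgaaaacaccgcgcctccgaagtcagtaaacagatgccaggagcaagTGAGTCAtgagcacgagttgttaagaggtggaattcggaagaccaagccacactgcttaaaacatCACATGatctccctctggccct
The Mmp12 window held CACGTG beginning at position -126 and TGAGTCA at -87, counted back from the start. The Gpnmb window held TGAGTCA at -87 and CACATG at -22. The Spp1 window held none of these letters, which says only that they are not in this stretch. The matches are descriptions of sequence, and binding was not measured.

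Spp1 was the gene of the 4 with the widest course: it was far above healthy nerve at day 3 in MIV and below healthy nerve at day 7 in both series. At day 7 the MIV nerves held 338, 118 and 212 CPM and the EV nerves 448, 184 and 93.2 CPM. At day 3 the MIV nerves held 5621, 9187 and 6499 CPM and the EV nerves 1058, 3957 and 1641 CPM. Healthy nerve was not low in Spp1, with 1095, 990, 1038, 1218 and 1763 CPM in its 5 libraries. Healthy muscle held 2.17, 0.163 and 4.37 CPM and healthy vein 0.303, 0.555 and 0.266 CPM, so among the untreated tissues the transcript was carried by nerve. In order of the means the groups ran MIV day 3, EV day 3, healthy nerve, EV day 7, MIV day 7, muscle and vein. The neighbours EV day 3 and healthy nerve overlapped, as did EV and MIV at day 7, and muscle and vein, whereas the other neighbours in that order did not.

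In the MIV day 3 nerves Spp1 was among the most counted genes of the library, at rank 8, 4 and 4, and took 0.647%, 1.06% and 0.786% of all counts. In EV day 3 nerves it took 0.127%, 0.466% and 0.187%, at ranks 67, 16 and 38. Relative to the mean of healthy nerve (1220 CPM ± 315, SD, n = 5), the mean at day 7 was 5.49-fold lower in MIV (222 CPM ± 110, SD, n = 3) and 5.05-fold lower in EV (242 CPM ± 184, SD, n = 3). At day 3 it was 5.82-fold higher in MIV (7102 CPM ± 1858, SD, n = 3) and 1.82-fold higher in EV (2219 CPM ± 1533, SD, n = 3). Both EV values moved with 1 library: on the log2 scale the day 7 value was -2.34, and -3.14 without replicate 1, and the day 3 value was 0.86, and 0.14 without replicate 2. Every day 7 library of either series lay below every healthy nerve library, as was the case for 24.6% of all 15954 genes in MIV and 26.9% in EV. Every MIV day 3 library lay above healthy nerve, as for 30.6% of all genes.

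Mmp12 was close to absent from the healthy tissues and present in every repaired nerve. At day 7 there were 174, 42.8 and 97.2 CPM in MIV nerves and 256, 242 and 36.3 CPM in EV nerves. At day 3 there were 44.7, 103 and 136 CPM in MIV nerves and 29.6, 139 and 63.6 CPM in EV nerves. The 5 healthy nerve libraries together held 4 counts, all of them in replicate 4 (0.246 CPM). Healthy muscle held 0 counts in all 3 libraries, and healthy vein held 3, 1 and 0 counts. The 4 repaired groups overlapped each other, so no order among them can be read from their means of 105 (MIV day 7), 178 (EV day 7), 94.4 (MIV day 3) and 77.5 CPM (EV day 3). Against the 4 counts of healthy nerve, the ratio of mean CPM for day 7 was 2133 in MIV nerves (95% counting interval 808 to 7596) and 3623 in EV nerves (1373 to 12902). At day 3 it was 1922 in MIV (728 to 6845) and 1578 in EV (598 to 5620). On the log2 scale the ratio in MIV at day 7 was 11.06, and 10.48 without MIV day 7 replicate 1, and that in EV at day 3 was 10.62, and 9.89 without EV day 3 replicate 2. Against healthy muscle, set at a floor of 3 counts over its 3 libraries, Mmp12 was at least 655-fold higher in MIV and 1113-fold higher in EV at day 7, and at least 591-fold higher in MIV and 485-fold higher in EV at day 3. These intervals and floors cover counting error only.

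Lgals3 lay above every healthy nerve library in all 12 repaired libraries, and all 3 healthy tissues carried it. The MIV nerves held 537, 570 and 321 CPM at day 7, and the EV nerves 517, 461 and 302 CPM. At day 3 the MIV nerves held 1185, 1042 and 1023 CPM, and the EV nerves 529, 732 and 707 CPM. Healthy nerve held 173, 197, 219, 185 and 166 CPM, healthy muscle 24.8, 33.0 and 29.0 CPM and healthy vein 271, 265 and 293 CPM. Vein, which is part of a muscle-in-vein graft, thus carried more Lgals3 than nerve in every library. Relative to healthy nerve (188 CPM ± 20.9, SD, n = 5), the day 7 mean was 2.53-fold higher in MIV and 2.27-fold higher in EV, and the day 3 mean was 5.76-fold higher in MIV and 3.49-fold higher in EV. Relative to healthy vein (276 CPM ± 14.7, SD, n = 3) the same means were 1.72-, 1.54-, 3.92- and 2.37-fold higher. The lowest repaired library, EV day 7 replicate 3, was still above the highest vein library. In order of the means, MIV day 3, EV day 3, MIV day 7, EV day 7, vein, nerve and muscle, the neighbours EV day 3 and MIV day 7 overlapped, as did MIV and EV at day 7.

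Gpnmb was high at both days in both series. The MIV nerves held 1517, 4538 and 866 CPM at day 7, and the EV nerves 1406, 1544 and 649 CPM. At day 3 the MIV nerves held 3426, 2811 and 2935 CPM, and the EV nerves 1335, 2127 and 1322 CPM. Healthy nerve held 134, 107, 72.9, 78.4 and 95.0 CPM, healthy muscle 3.07, 6.37 and 6.48 CPM and healthy vein 114, 110 and 113 CPM. The 2 healthy tissues nerve and vein overlapped, and every repaired library lay above both. The mean relative to healthy nerve (97.6 CPM ± 24.7, SD, n = 5) was 23.6-fold higher in MIV and 12.3-fold higher in EV at day 7, and 31.3-fold higher in MIV and 16.3-fold higher in EV at day 3. On the log2 scale the MIV day 7 value was 4.56, and 3.61 without replicate 2, whose 4538 CPM was the highest Gpnmb level of the series. In order of the means, MIV day 3, MIV day 7, EV day 3, EV day 7, vein, nerve and muscle, each repaired neighbour overlapped the next, while EV day 7 did not overlap vein.

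**Figure D1:**
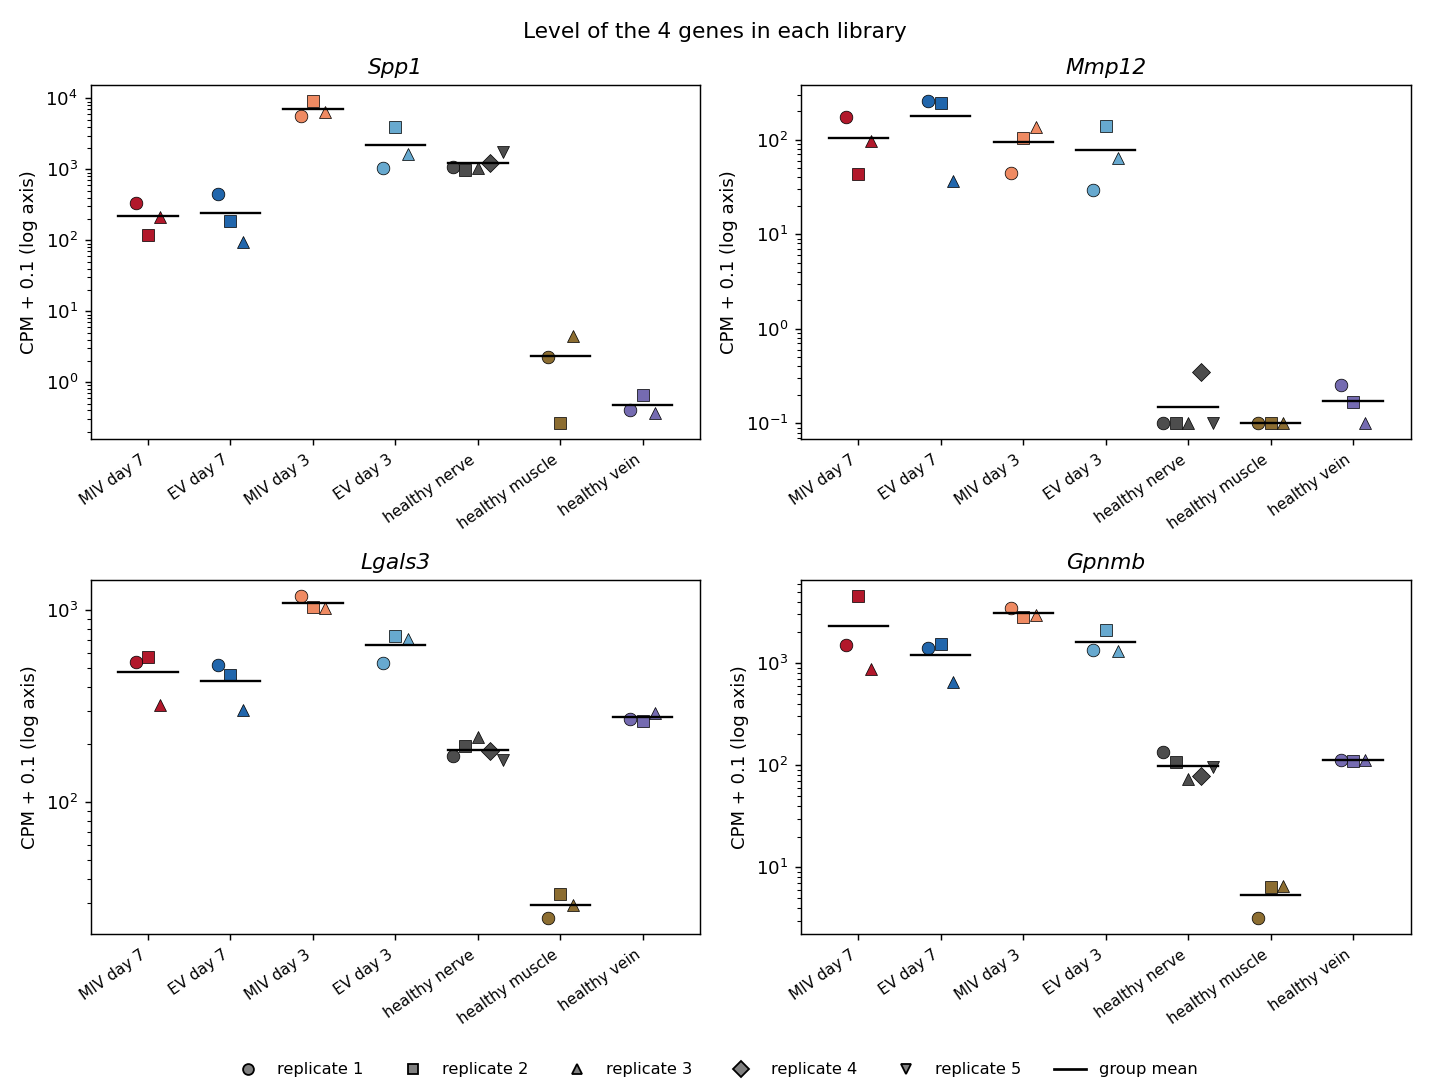
Level of each of the 4 genes in every library (CPM plus 0.1, log axis, 1 panel per gene), by group from MIV day 7 at the left to healthy vein at the right; points are libraries and bars are group means. In the Spp1 panel the mean of healthy nerve lies between the day 3 and day 7 means, and its libraries overlap those of EV day 3. In the other 3 panels every repaired library lies above every healthy nerve library.

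Across the 12 repaired libraries together, 3 of the 4 genes (Mmp12, Lgals3 and Gpnmb) lay above healthy nerve in every library, as did 13.6% of all 15954 genes, and Spp1 did not. All 4 lay above healthy muscle and above healthy vein in every repaired library, as did 25% and 14% of all genes. Since the choice of the 4 genes used these differences, the counts describe them and are not read further, and the repaired groups are all set against the same healthy libraries. As a share of all counts in a library, the 4 genes together took 0.342% ± 0.205 in MIV nerves and 0.246% ± 0.0968 in EV nerves at day 7, and 1.33% ± 0.174 in MIV nerves and 0.533% ± 0.251 in EV nerves at day 3 (SD over 3 libraries each). They took 0.161% ± 0.0276 (SD, n = 5) in healthy nerve, 0.00151% ± 0.000236 (SD, n = 3) in healthy muscle and 0.0454% ± 0.00329 (SD, n = 3) in healthy vein.

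The later day was then compared with the earlier one within each series, in a fit of the 12 repaired libraries over 15036 genes. In the MIV series Spp1 and Lgals3 fell and the other 2 did not pass the test, a count of 2 of 4 called lower, against 8.09% of all genes called lower. The genes were chosen by high levels in these same repaired nerves, and the Spp1 means were above healthy nerve at day 3 only. Such a choice can favour a fall, so the counts and p-values of both time courses carry this limit. Spp1 had a log2 fold change of -4.97 (SE 0.74, 95% interval -6.61 to -3.34, edgeR quasi-likelihood test, adjusted p = 0.00228), a level 31.4-fold lower at day 7, and 0.126% of all genes fell further. Lgals3 had a log2 fold change of -1.18 (SE 0.26, interval -1.74 to -0.62, edgeR adjusted p = 0.0134), a level 2.27-fold lower at day 7. For both genes all 3 day 7 libraries lay below all 3 day 3 libraries, which was the case for 16.4% of all genes. Gpnmb had a log2 fold change of -0.42 (interval -1.57 to 0.73, edgeR adjusted p = 0.611) and Mmp12 one of 0.18 (interval -1.55 to 1.90, edgeR adjusted p = 0.900). The Gpnmb value depended on MIV day 7 replicate 2: without it the log2 fold change was -1.32 (edgeR adjusted p = 0.0367).

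In the EV series Spp1 alone was called lower, 1 of 4, against 10.2% of all genes called lower. Its log2 fold change was -3.18 (SE 0.68, interval -4.69 to -1.68, edgeR adjusted p = 0.0107), a level 9.07-fold lower at day 7, and 0.585% of all genes fell further. The size rested on single libraries, with -2.47 without EV day 3 replicate 2 and -3.98 without EV day 7 replicate 1, both still past the threshold. Lgals3 had a log2 fold change of -0.61 (interval -1.16 to -0.05, edgeR adjusted p = 0.115). For Spp1 and Lgals3 the day 7 libraries again lay below all day 3 libraries, as for 23.4% of all genes. Mmp12 had a log2 fold change of 1.22 (interval -0.54 to 2.97, edgeR adjusted p = 0.302) and Gpnmb one of -0.40 (interval -1.55 to 0.75, edgeR adjusted p = 0.621), and neither was separated by day.

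For Spp1 the MIV time course minus that of EV was -1.79 on the log2 scale, and the test of that difference did not pass (SE 0.89, interval -3.77 to 0.18, edgeR adjusted p = 0.906). It was -0.99 without EV day 7 replicate 1 and -2.51 without EV day 3 replicate 2. For the other genes the difference between the 2 time courses was -0.57 for Lgals3 (interval -1.36 to 0.21), -1.04 for Mmp12 (interval -3.48 to 1.41) and -0.02 for Gpnmb (interval -1.65 to 1.60), none called. No gene in the whole table was called for this difference by edgeR (0%), 796 had an unadjusted p under 0.05, and DESeq2 called 17, none of the 4 among them.

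MIV was set against EV on each day, since the series asks what muscle fibres do in the graft early in regeneration. At day 3, Spp1, Lgals3 and Gpnmb had higher values in all 3 MIV libraries than in any EV library, 3 of 4 genes against 7.17% of all 15036 genes separated this way, and Mmp12 overlapped. The quasi-likelihood test with adjustment over all genes called 0 of the 4, and 0 genes at all (0%). Spp1 was 3.21-fold higher in MIV, a log2 fold change of 1.68 (SE 0.64, interval 0.26 to 3.10, edgeR adjusted p = 0.754). Its value lay between 1.35 and 2.40 without any 1 library, and was highest without EV day 3 replicate 2. Lgals3 was 1.65-fold higher in MIV, a log2 fold change of 0.72 (SE 0.25, interval 0.17 to 1.28, edgeR adjusted p = 0.639). Gpnmb was 1.92-fold higher in MIV, a log2 fold change of 0.94 (SE 0.52, interval -0.22 to 2.09, edgeR adjusted p = 1). Mmp12 had a log2 fold change of 0.29 (interval -1.44 to 2.02, edgeR adjusted p = 1). At an unadjusted p under 0.05 edgeR gave 775 of 15036 genes, Spp1 and Lgals3 among them, close to the number that such a threshold gives by chance. Without EV day 3 replicate 1, edgeR gave 0 of the 4 at that threshold. It gave 1 of 4 without EV day 3 replicate 3 or without MIV day 3 replicate 2. With all 23 libraries, with the replicate block or without MIV day 7 replicate 2, it gave 3 of 4. Gpnmb then had an unadjusted edgeR p of 0.0478, 0.0334 and 0.0203, in that order. Without MIV day 7 replicate 2, edgeR called 70 genes after adjustment, none of the 4 among them. DESeq2 called 251 genes, none of the 4 among them.

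At day 7 the groups MIV and EV overlapped for all 4 genes, where 9.92% of all genes were separated as higher and 11.7% as lower in MIV. None of the 4 was called, and no gene of the table was (0%), with 2514 at an unadjusted p under 0.05 and 868 called by DESeq2. Without MIV day 7 replicate 2, edgeR called 688 genes, none of the 4 among them. The log2 fold change of MIV against EV was 0.91 for Gpnmb (SE 0.52, interval -0.24 to 2.07, edgeR adjusted p = 0.387). Its size rested on a single library, since it was 0.01 without MIV day 7 replicate 2. Between libraries of the same number, Gpnmb was higher in MIV in 3 of 3 pairs, and so was Lgals3. Spp1 and Mmp12 were lower in MIV for replicates 1 and 2 and higher for replicate 3. The share of all genes higher in 3 of 3 pairs was not counted, so these pairs are not read further. With the number as a block at day 7, chosen after seeing the data, the log2 fold change was 0.68 for Gpnmb (SE 0.29, edgeR adjusted p = 0.274) and 0.15 for Lgals3 (SE 0.16, edgeR adjusted p = 0.653). Without the block it was 0.15 for Lgals3 (interval -0.41 to 0.71), -0.11 for Spp1 (interval -1.50 to 1.28) and -0.75 for Mmp12 (interval -2.48 to 0.98). These intervals leave room for differences of more than 1 log2 unit in either direction for Spp1, and they do not show that the series were alike. The muscle-enriched identifiers, 2842 that stood above both other healthy tissues in healthy muscle, took 26.7% ± 9.87 of the counts in MIV nerves and 16.7% ± 0.557 in EV nerves at day 7, and 19.5% ± 1.93 in MIV and 18.5% ± 1.25 in EV nerves at day 3 (SD, n = 3 each). They also took 15.9% ± 1.18 in healthy nerve (SD, n = 5) and 16.5% ± 0.708 in healthy vein, against 80.4% ± 0.361 in healthy muscle (SD, n = 3 each). They are thus not counted in muscle alone. The part of this share in the values of the 4 genes was not tested.

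Averaged over both days, Gpnmb was higher in MIV by 0.93 (SE 0.37, interval 0.11 to 1.74, edgeR adjusted p = 0.273) and Lgals3 by 0.44 (SE 0.18, interval 0.04 to 0.83, edgeR adjusted p = 0.283) on the log2 scale. Neither gene passed after adjustment over all genes. The Gpnmb value was 0.47 without MIV day 7 replicate 2 and between 0.78 and 1.14 without any other single library, and the Lgals3 value lay between 0.34 and 0.56 without any 1 library. Spp1 had 0.79 (interval -0.20 to 1.77) and Mmp12 -0.23 (interval -1.45 to 0.99). Among all genes, 1.54% were called over both days, and 0 of the 4 were.

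**Figure D2:**
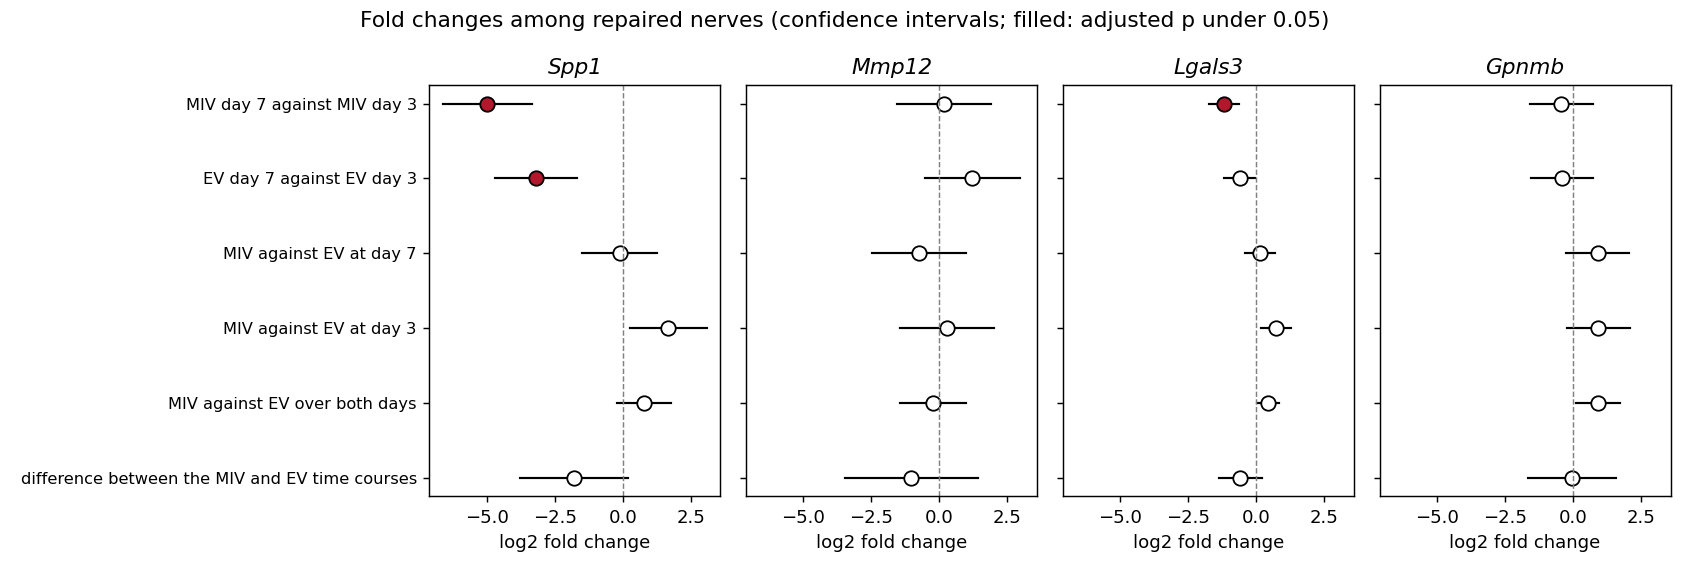
Log2 fold changes with 95% intervals from the edgeR fit of the 12 repaired libraries, 1 panel per gene with the comparisons down the page; positive values are higher in MIV for the comparisons of the series and higher at day 7 for the time courses. The filled points, with an adjusted p under 0.05, are Spp1 in both time courses and Lgals3 in the MIV time course, and Mmp12 has the widest interval in each comparison.

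The course of Spp1 relative to the other genes was also read within each library as a ratio of counts, which no scaling between libraries can change. A ratio of 2 genes depends on their lengths, so only its change between libraries is informative. The ratio of Spp1 to Gpnmb counts had a median of 0.223 in MIV (0.0259 to 0.245) and 0.144 in EV (0.119 to 0.319) at day 7, against 2.21 in MIV (1.64 to 3.27) and 1.24 in EV (0.792 to 1.86) at day 3. All 6 day 7 libraries lay below all 6 day 3 libraries. Within the 2 series the ratio was 11.9-fold lower at day 7, with an exact permutation p of 0.005, the smallest that the 400 arrangements of days within series allow (two-sided, adjusted p = 0.02 over 12 such tests). The tests on ratios were chosen after the values had been seen.

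The other ratios with Spp1 moved the same way. Because all 3 ratios share the Spp1 counts, they are not independent results. Spp1 to Lgals3 had a median of 0.629 in MIV and 0.400 in EV at day 7, against 6.35 in MIV and 2.32 in EV at day 3, and was 9.48-fold lower at day 7 (exact permutation p = 0.005, adjusted p = 0.02). Spp1 to Mmp12 had a median of 2.18 in MIV and 1.75 in EV at day 7, against 89.1 in MIV and 28.4 in EV at day 3, and was 26.6-fold lower at day 7 (exact permutation p = 0.005, adjusted p = 0.02). Leaving out any 1 of the 12 libraries kept all 3 of these below an adjusted p of 0.05. That outcome was fixed beforehand, because for each of the 3 ratios every day 7 library lay below every day 3 library. Mmp12 to Lgals3 was higher at day 7 by 1.49 on the log2 scale without passing the adjustment (exact permutation p = 0.035, adjusted p = 0.084), and Mmp12 to Gpnmb by 1.16 (exact permutation p = 0.155, adjusted p = 0.31). Both passed without MIV day 7 replicate 2, with adjusted p of 0.048 and 0.045 in the exact permutation test. Neither passed without any other single library, where the adjusted p of that test reached 0.192 and 0.42. Lgals3 to Gpnmb differed by -0.33 between the days (exact permutation p = 0.3, adjusted p = 0.36).

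Between the series, the largest difference in ratio was that of Spp1 to Mmp12, 2.03-fold higher in MIV than in EV within days (exact permutation p = 0.02, adjusted p = 0.06). It passed without EV day 7 replicate 3 (exact permutation test, adjusted p = 0.015) but without no other single library, where the adjusted p reached 0.156. The other 5 ratios had unadjusted p of 0.2 or more in the exact permutation test between MIV and EV. Among them, Spp1 to Gpnmb differed by 0.12 on the log2 scale (exact permutation p = 0.885), and its direction changed when single libraries were left out.

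**Figure D3:**
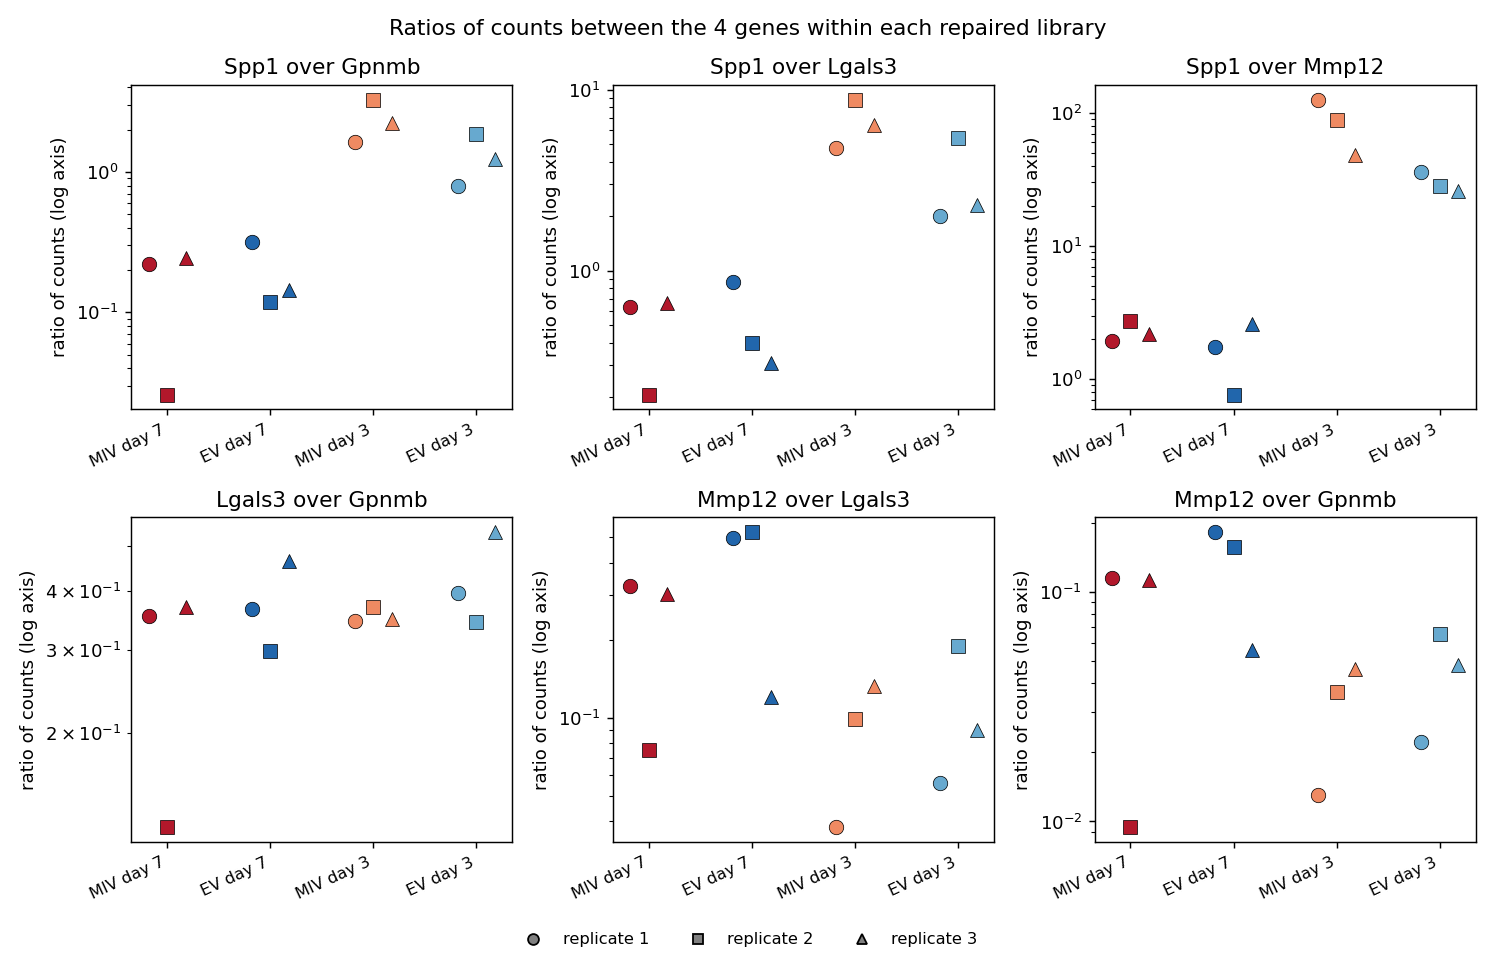
Ratio of counts of each pair of the 4 genes within each repaired library (log axis, 1 panel per pair, 1 point per library, marker shape by replicate), with MIV day 7, EV day 7, MIV day 3 and EV day 3 as groups. In the 3 upper panels, those with Spp1, every day 7 point lies below every day 3 point of either series, and in the 3 lower panels the days overlap.

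The 4 genes also differed in how far the replicates of a group lay apart. The spread is given as the highest over the lowest CPM of the 3 libraries of a group, beside the share of genes at 10 CPM or more that spread wider. Mmp12 spread 7.06-fold in EV at day 7 (0.612% of genes were wider) and 4.71-fold in EV at day 3 (1.87%). Gpnmb spread 5.24-fold in MIV at day 7 (8.47%) but 1.22-fold in MIV at day 3 (65.4%). Spp1 spread 4.81-fold in EV at day 7 (1.15%) and 1.63-fold in MIV at day 3 (20.4%). Lgals3 spread 1.78-fold in MIV (36.1%) and 1.71-fold in EV (11.3%) at day 7, and 1.16-fold in MIV (77.3%) and 1.38-fold in EV (42.2%) at day 3. The median gene spread 1.53-fold in MIV and 1.27-fold in EV at day 7, and 1.31-fold in MIV and 1.32-fold in EV at day 3, so Lgals3 was below the median gene in MIV at day 3 alone. In each of the 4 groups its spread was the smallest of the 4 genes.

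Single libraries moved several of the genes at once. EV day 3 replicate 2 was the highest of its group, and EV day 7 replicate 3 the lowest of its group, for all 4 genes. EV day 7 replicate 3 lay 1.84 below its group mean for Mmp12 and 1.08 below for Spp1 on the log2 scale. In MIV day 7 replicate 2 the genes parted. Gpnmb lay at 1.27 above the group mean on the log2 scale and was the highest of its group. Lgals3 was also the highest, at 0.251, though close to its 0.243 in replicate 1. In replicate 2, Spp1 at -0.84 and Mmp12 at -1.12 were the lowest. That library also had the lowest muscle-enriched share of its group, 17.9% of counts, against 24.8% in replicate 1 and 37.4% in replicate 3. Its part in the Gpnmb value was not tested.

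**Figure D4:**
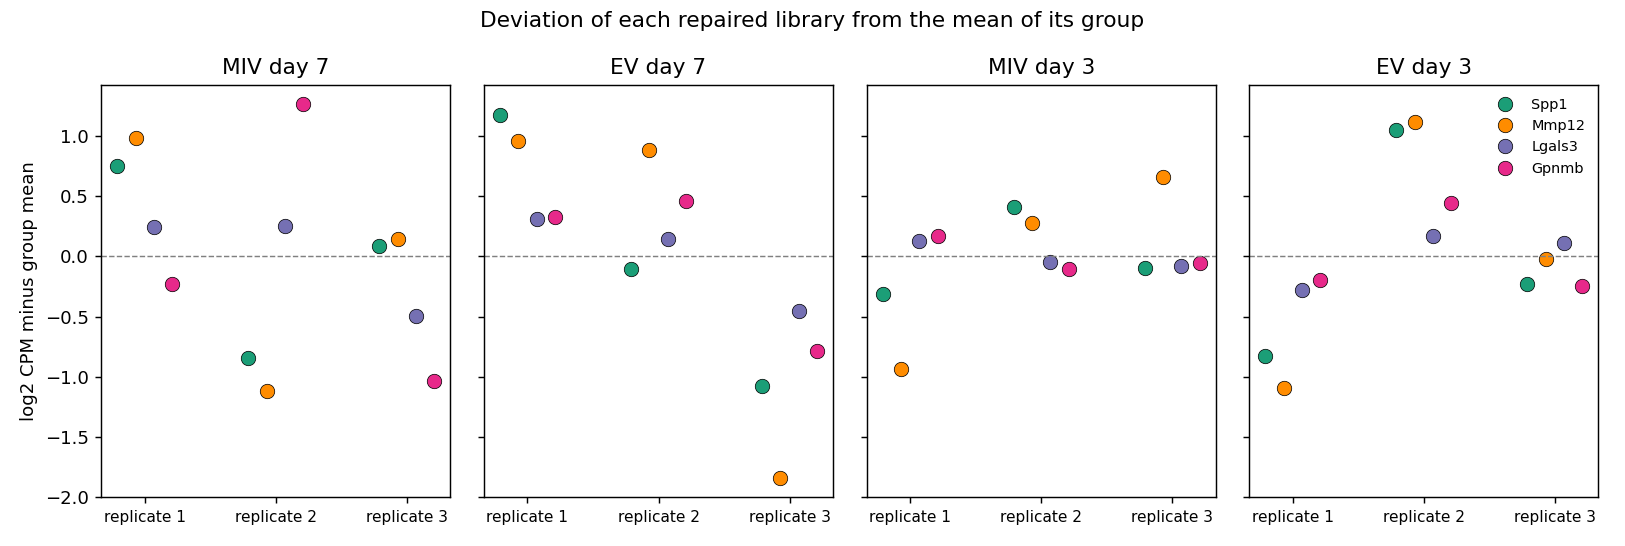
Deviation of each repaired library from its group mean (log2 CPM, 0 marks the group mean) for the 4 genes, by group from MIV day 7 to EV day 3 and by replicate. EV day 3 replicate 2 is above and EV day 7 replicate 3 below 0 for all 4 genes. In MIV day 7 replicate 2 Gpnmb and Lgals3 are above 0 while Spp1 and Mmp12 are below.

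As a description over the 12 repaired libraries, which mixes differences between the groups with those inside them, the log2 CPM of Spp1 and Lgals3 had a Pearson correlation of 0.898 (Spearman 0.846). Lgals3 was the 108th most similar of 15035 genes to Spp1, and Spp1 the 36th most similar to Lgals3, so many other genes shared the pattern more closely. Lgals3 and Gpnmb had 0.780 (Spearman 0.741) and Spp1 and Gpnmb 0.499 (Spearman 0.413). Mmp12 had between -0.0109 and 0.0432 with the other 3 (Spearman between 0 and 0.140). The gene nearest to Spp1 by either measure was ENSRNOG00000018824 (Pearson 0.966). It averaged 13.1 CPM in MIV and 14.4 CPM in EV nerves at day 7, 58.3 CPM in MIV and 44.1 CPM in EV nerves at day 3, and 127 CPM in healthy nerve. Like Spp1 it was lower at day 7 in both series (edgeR log2 fold change -2.13 in MIV, adjusted p = 0.000298, and -1.60 in EV, adjusted p = 0.000949), but its day 3 means lay below healthy nerve. The gene nearest to Lgals3 by Pearson correlation was ENSRNOG00000001314 (0.959), with means of 90.7 CPM in MIV and 61.7 CPM in EV at day 7, 209.9 CPM in MIV and 97.2 CPM in EV at day 3, and 52.1 CPM in healthy nerve. The nearest genes had 0.955 for Gpnmb and 0.828 for Mmp12, and with Spearman correlation another gene was nearest to each of Lgals3, Gpnmb and Mmp12.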

How the data were processed

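TRIzol RNA was selected by poly-T beads and made into libraries without strand marks, per the labels' protocols, so a gene and an overlapping antisense gene share reads. CASAVA and HISAT2 are named in the submitters' processing notes. How reads were counted, and on which build and annotation, is not given in the sources used here. The authors deposited raw counts per Ensembl gene identifier, not normalized.

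Libraries were grouped by their titles. CPM used TMM factors over 23 libraries (15954 genes). Repaired nerves were compared in R 4.3.3 with edgeR 4.0.16 on 12 libraries (filterByExpr with minimum count 10 and minimum total 15, robust quasi-likelihood fit, 15036 genes, biological coefficient of variation 37.1%, Benjamini-Hochberg adjustment over all genes, threshold 0.05). The fit was also run on simulated counts, where the only requirement was that planted changes that were called had the planted sign. Log2 CPM for correlations and deviations used a prior count of 2. Counting intervals are exact Poisson intervals at 95%, and the floor for a group at 0 is 3 counts. Alternatives were DESeq2 1.42.0, its size factors, no filter, scaling without muscle-enriched genes (log2 fold change above 1 in healthy muscle), all 23 libraries, a replicate block and leaving out each library.

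The 4 genes and the lists around them were chosen with earlier results of these data known. Gene lists and markers had been planned by symbol, but 0 identifiers matched a symbol in the reference table (GRCr8), so no list was measured, and the symbols of the 4 genes come from the rule that chose them. The named genes are these 4 and, of the genes most similar to each by correlation, 2 identifiers. The deviations of same-numbered MIV and EV libraries from their group means had weak correlations at day 7 (0.224, 0.201 and 0.176). At day 3 they had -0.0913, 0.239 and -0.0149, and the value of replicate 2 exceeded those of day 7. Libraries of different numbers were not compared in this way, so a pairing by number is not shown. The block at day 7 alone was chosen from these values, not from a label, and serves only as an alternative.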

Additional observations from a re-analysis of the deposited data

Results flagged for a closer look

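The Spp1 difference from healthy nerve was not the same at the 2 days. The test of day 7 against day 3 is the test of that change, and it gave a log2 fold change of -4.97 in MIV (edgeR adjusted p = 0.00228) and -3.18 in EV (edgeR adjusted p = 0.0107), with all 3 day 7 libraries below all 3 day 3 libraries in each series. Lgals3 differed between the days in the same sense in MIV, at -1.18 (edgeR adjusted p = 0.0134), also with 3 of 3 libraries lower. The choice of the genes by their levels in these same repaired nerves limits these tests.

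In healthy nerve, 1 of the 5 libraries stood apart for Mmp12: replicate 4 held 4 counts and the others held 0, so its gap to the nearest library made up the whole range of the group (a ratio of 1). The threshold behind this remark is passed by chance in about 1 in 20 groups of ordinary values, whereas counts in a single library always give a ratio of 1. The level in that library was 0.246 CPM.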

How the results depend on the processing

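The calls of Spp1 in both time courses and of Lgals3 in the MIV time course held under all 18 alternatives of each. Their log2 fold changes ranged from -5.42 to -4.66 for Spp1 in MIV, from -3.98 to -2.47 for Spp1 in EV and from -1.30 to -0.97 for Lgals3 in MIV, with edgeR or DESeq2 adjusted p of at most 0.0116, 0.0446 and 0.0432. With all 23 libraries fitted, Lgals3 was also called lower at day 7 in EV, at -0.62 (edgeR adjusted p = 0.0325). The sign of uncalled values near 0 changed in some settings. The difference of the Gpnmb time courses became 0.0045 with all 23 libraries, 0.013 without a filter and 0.014 with scaling without muscle-enriched genes. MIV against EV at day 7 for Spp1 became 0.022 with the replicate block and 0.024 with the block at day 7 alone, an alternative chosen after seeing the data. The block changed no other sign and no call among the 4 genes. Leaving out 1 library gave ranges of -0.93 to 0.38 for the difference of the Gpnmb time courses, -1.32 to -0.028 for Gpnmb in the MIV time course and -0.42 to 0.56 for Mmp12 in the same. Mmp12 had 0.83 to 1.95 in the EV time course and -1.77 to -0.65 for the difference of the time courses. For MIV against EV it gave -0.047 to 0.38 for Lgals3, -0.56 to 0.69 for Spp1 and -1.35 to -0.37 for Mmp12 at day 7, -0.10 to 1.02 for Mmp12 at day 3 and -0.53 to 0.13 for Mmp12 over both days. For ratios, a later addition, it gave -0.16 to 0.65 for Spp1 to Gpnmb and 0.77 to 1.21 for Spp1 to Mmp12 in MIV against EV, and 0.86 to 1.76 for Mmp12 to Gpnmb and 1.22 to 1.83 for Mmp12 to Lgals3 in day 7 against day 3. The cause of these changes was not tested. The values against healthy nerve moved by less than the replicate spread in every alternative that gave a value. Mmp12 without healthy nerve replicate 4 gave none, since that group was then at 0.

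Counts of calls over all genes depended more on the setting. Called genes numbered 2947 in the EV and 2327 in the MIV time course, 4533 and 4153 with all 23 libraries, and 1390 in the EV time course without EV day 3 replicate 2. MIV against EV called 0 genes at each day, 251 at day 3 and 868 at day 7 with DESeq2, 160 and 1135 with all 23 libraries, and 43 at day 7 with the block at that day. Over both days it called 232, against 814 with DESeq2, 975 with all 23 libraries, 109 with the replicate block and 0 without EV day 3 replicate 1. The absence of calls by edgeR also depended on MIV day 7 replicate 2. Without that library, MIV against EV called 70 genes at day 3, 688 at day 7 and 698 over both days. The difference between the time courses then called 3 genes. None of the 4 genes was among those called. Depth limits Mmp12 in the healthy tissues, where no group held more than 4 counts.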
